A study of Mus musculus with 4 samples.

Results

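The expression of 8 sterol genes was followed in marrow stromal cells traced from the fetus with 2 Cre drivers: Hmgcs1, Idi1, Fdft1, Sqle, Lss, Cyp51, Srebf2 and Insig1. They were picked by symbol as genes of cholesterol synthesis and uptake under the control of the transcription factor SREBP2. The rule used no measured value, but earlier results of these data were known when the genes were chosen. All 8 had a row among the 17230 rows of the count table, and all 8 were among the 14330 genes that passed the filter on low counts. Among the 8 genes, 6 encode enzymes of cholesterol synthesis, Srebf2 encodes SREBP2 itself and Insig1 encodes a sterol-responsive protein that holds SREBP2 back. None of the 8 encodes a lipoprotein receptor, so uptake is described below from other genes of the pathway.

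Cells build cholesterol from acetyl-CoA through mevalonate, isoprene units, squalene and lanosterol. SREBP2 is made as a membrane protein of the endoplasmic reticulum, where its escort SCAP is retained by INSIG proteins while sterols are plentiful. When membrane sterol falls, SCAP takes SREBP2 to the Golgi, where a pair of proteases release the part that enters the nucleus and switches on the synthesis enzymes and receptors for lipoprotein uptake. The pathway serves membrane building in every nucleated cell, and INSIG1 is itself a product of SREBP activity, which closes a feedback loop.

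The libraries are bulk RNA sequencing of CXCL12-abundant reticular (CAR) cells, the stromal cells of the marrow that make factors for blood stem cells, taken from femurs of mice at postnatal day 21. Hes1-derived cells came from mice of genotype Cxcl12(GFP/+); Hes1(CreER/+); R26R(tdTomato/+), and Fgfr3-derived cells from mice of genotype Cxcl12(GFP/+); Fgfr3-iCreER; R26R(tdTomato/+). Both groups thus carried GFP in 1 allele of Cxcl12 and received tamoxifen once, at embryonic day 12.5, which switched on a lasting tdTomato mark in cells that used the Cre driver at that time. Per the series title, the Hes1-derived and Fgfr3-derived groups bear on an origin in perichondrium and in chondrocytes of the fetus, though the labels do not tie each driver to an origin. The CreER allele of Hes1 was present in the Hes1-derived group alone, so origin and driver genotype cannot be told apart. Each group had 2 libraries, replicates 1 and 3 for Hes1-derived and replicates 2 and 3 for Fgfr3-derived cells. The labels do not say whether a library was 1 animal or a pool, nor whether replicates came from separate animals, so p-values measure the spread between these libraries. The cell type label names a GFP and tdTomato sort, whereas the extraction text names tdTomato alone.

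Hes1-derived libraries held 22745128 and 23625327 reads and Fgfr3-derived libraries 26025607 and 26804832 reads. Cxcl12, which the cell type is named for, stood at 7057 and 4180 CPM (reads scaled to a common library size, with TMM factors) in Hes1-derived and 9764 and 7028 CPM in Fgfr3-derived libraries, and the eGFP row at 6669 and 3204 CPM against 9264 and 6754 CPM. Markers of other cells were present in all libraries and moved with the groups. Summed over 15 pan-leukocyte markers the level was 7754 and 8902 CPM in Hes1-derived against 2224 and 4702 CPM in Fgfr3-derived libraries, and 9 of the 15 were higher by the test used below. That test called 5.24% of all tested genes higher and 6.56% lower, and the counts of each marker list are to be read beside these shares. Of the B lymphocyte markers 14 of 14 were higher (2666 to 2737 CPM summed against 393 to 672 CPM), of the erythroid markers 10 of 11 tested (4994 to 8678 against 1360 to 2017 CPM) and of the cell cycle genes 15 of 20 (5905 to 6410 against 2779 to 3386 CPM). Osteoblast markers went the other way, with 9 of 14 lower (5596 to 5735 against 29200 to 34910 CPM), and 2 of 20 stroma genes were lower (12900 to 19220 against 18560 to 27940 CPM). Of 12 neutrophil markers 1 was higher and 1 lower (27820 to 32790 against 11760 to 24570 CPM), of 11 macrophage markers 3 were higher (1448 to 1679 against 1142 to 1928 CPM), of 9 endothelial markers 1 was higher (124.7 to 135.4 against 44.2 to 61.05 CPM), and of 8 megakaryocyte markers 0 passed, also at an unadjusted p under 0.05 (39.57 to 74.95 against 24.43 to 91.68 CPM). The macrophage sum is mostly Vcam1, which is also counted among the stroma genes. Vcam1 had 1291 and 964 CPM in Hes1-derived against 1729 and 859 CPM in Fgfr3-derived libraries. For 7 of the 11 macrophage markers both Hes1-derived libraries lay above both Fgfr3-derived ones, against 29.8% of all tested genes. They lay below for 1 of the 11, against 32.1%. Of the 12 neutrophil markers, they lay above for 9 and below for 1. At an unadjusted p under 0.05 by edgeR, 4 of the 12 neutrophil markers were higher and 1 lower, where 13.7% and 16.3% of all genes were. Abundant markers of these lists were Spp1 (log2 fold change −3.72) and Mmp13 (−3.47) for osteoblasts, Cd79a (2.42) for B lymphocytes, Alas2 (2.66) for erythroid cells, Coro1a (1.48) for leukocytes and Rrm2 (1.09) for the cell cycle. These genes passed the test, but other abundant markers did not. Arhgdib, the most abundant of the leukocyte markers, had a log2 fold change of 1.01 (edgeR adjusted p = 0.157). The most abundant neutrophil markers, Ngp and Ltf, had 0.96 and 0.99 (edgeR adjusted p = 0.264 and 0.241). No marker with a row was at 0 in every library. In bulk RNA, fewer cells of a type and less RNA per cell cannot be told apart, and the part of these markers in the sterol gene results was not tested.

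The comparison asks how sterol genes differ between the stromal cells that the 2 drivers marked. Hmgcs1, Sqle and Cyp51 were lower in Hes1-derived libraries, each by a little over 2-fold, while Idi1, Fdft1, Lss, Srebf2 and Insig1 did not pass the test. Thus 3 of 8 genes were called lower where 6.56% of all 14330 tested genes were, and 0 of 8 were called higher where 5.24% of all genes were, by edgeR's quasi-likelihood test with Benjamini-Hochberg adjustment over all tested genes. At an unadjusted p under 0.05 the same fit gave 5 lower and 0 higher, where 16.3% of all tested genes were lower and 13.7% higher. At the adjusted threshold DESeq2, limma-voom and limma-trend each called 3 lower, where they called 10.4%, 7.33% and 6.59% of all genes lower. Each of them called 0 of the 8 higher, against 9.48%, 6.23% and 5.79% of all genes. Since the 8 genes were chosen with earlier results known, these shares describe them and carry no test. For 5 of 8 genes both Hes1-derived libraries lay below both Fgfr3-derived libraries, against 32.1% of all tested genes, and for 0 of 8 they lay above, against 29.8%. The log2 fold change, Hes1-derived minus Fgfr3-derived, was negative for 8 of 8 genes with a median of −0.92, beside −0.025 over all tested genes, but it was negative for only 6 of 8 when libraries were scaled by their stroma reads, for 4 of 8 when scaled by eGFP reads, for 7 of 8 with Hes1-derived replicate 3 left out and for 5 of 8 with Fgfr3-derived replicate 3 left out. Under the stroma and eGFP scalings the median of all genes stood at 0.51 and 0.83, and the median of the sterol genes lay 0.90 and 0.84 below that of all genes, against 0.90 in the standard fit. No sterol gene was called under either of them. Per 1000 eGFP reads the groups overlapped for 8 of 8 genes, Cyp51 for example having 5.69 and 12.4 reads in Hes1-derived against 10.2 and 13.1 reads in Fgfr3-derived libraries.

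**Figure D1:**
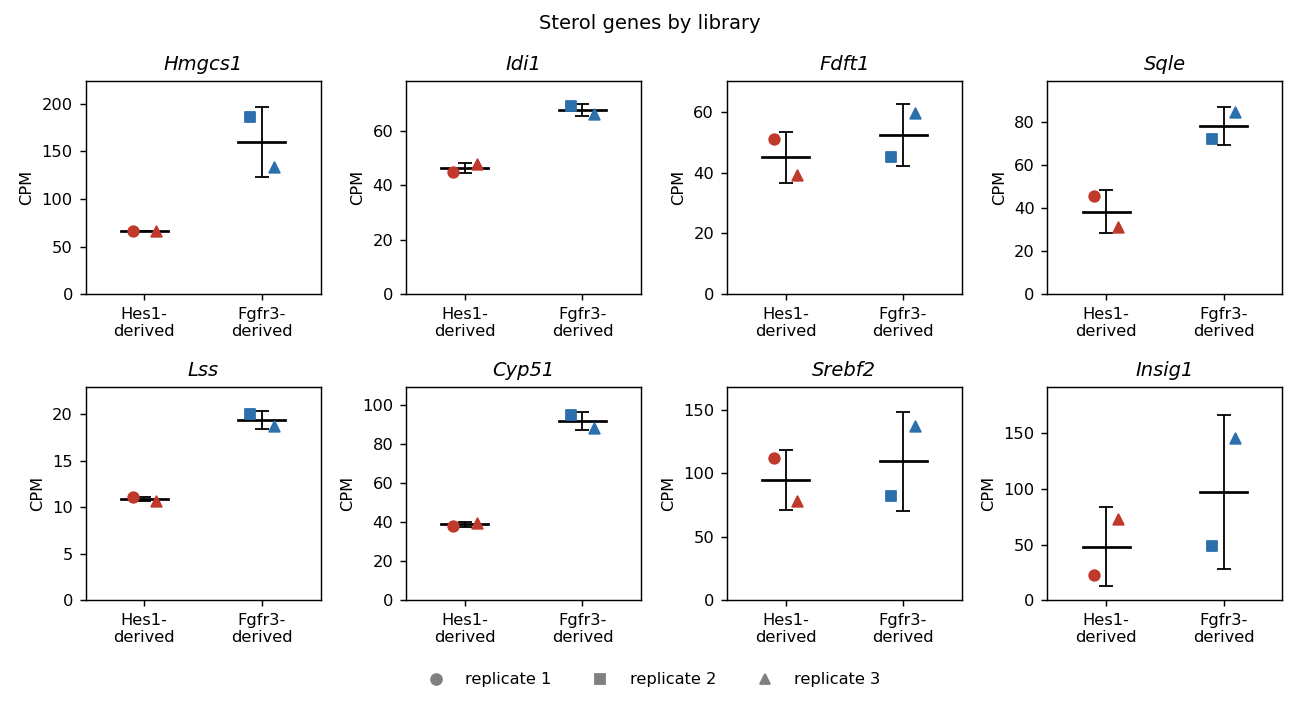
Level of each sterol gene in CPM (vertical axes start at 0) in Hes1-derived (left of each panel) and Fgfr3-derived libraries, with the mean and SD of 2 libraries in black. Both Hes1-derived libraries lie below both Fgfr3-derived ones for Hmgcs1, Idi1, Sqle, Lss and Cyp51, and overlap them for Fdft1, Srebf2 and Insig1, whereas per eGFP read the groups overlap for 8 of 8 genes.

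Hmgcs1 encodes the HMG-CoA synthase of the cytosol, which makes the precursor of mevalonate. It lies on chromosome 13, from base 119690379 to 119708260 of build GRCm38 on the forward strand. Its reads numbered 1518 and 1655 in libraries of Hes1-derived cells and 4726 and 3509 in those of Fgfr3-derived cells, or 66.8 and 66.7 CPM against 186 and 134 CPM. The groups did not overlap, and the CPM of the Hes1-derived libraries differed 1.001-fold while that of the Fgfr3-derived libraries differed 1.39-fold. The log2 fold change was −1.26 ± 0.23 (SE), a 2.40-fold lower level (adjusted p = 0.0225). The call depended on single libraries: the adjusted p was 0.0541 without Hes1-derived replicate 1, 0.0853 with Hes1-derived replicate 3 left out and 0.0599 with Fgfr3-derived replicate 2 left out, with log2 fold changes of −1.26, −1.26 and −0.99.

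Idi1 encodes the isomerase that interconverts the C5 isoprene units from which longer chains are built. Its position is chromosome 13, base 8885501 to 8892451, forward strand. It stood at 45.0 and 47.7 CPM in Hes1-derived and 69.3 and 66.2 CPM in Fgfr3-derived libraries. The groups did not overlap and their libraries differed little among themselves, 1.06-fold and 1.05-fold, yet the log2 fold change of −0.55 ± 0.20 did not pass (adjusted p = 0.118). Its sign turned to 0.32 after scaling to eGFP. Annotated processed pseudogenes match its transcript over 684 bases at 100% identity and over 681 bases at 97.7% identity, so reads could have been shared with them.

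Squalene is formed, oxidized and folded into the first sterol by the next 3 enzymes. Fdft1, the squalene synthase gene (chromosome 14, base 63145150 to 63179578, reverse strand), stood at 51.1 and 39.2 CPM in Hes1-derived and 45.2 and 59.6 CPM in Fgfr3-derived libraries. The groups overlapped, and the log2 fold change of −0.22 ± 0.25 did not pass (adjusted p = 0.613). Fdft1 shares 774 exon bases, 18.3% of its exons, with Ctsb on the opposite strand, the gene of the abundant lysosomal protease cathepsin B. Ctsb, named after its values were seen, had 2053 and 1529 CPM against 1865 and 2277 CPM, and per 100 Ctsb reads Fdft1 had 2.49 and 2.56 in the Hes1-derived libraries against 2.43 and 2.62 in the Fgfr3-derived ones. The strand setting of the counting is not given in the sources used here, so Fdft1 reads cannot be told apart from Ctsb reads over those bases, and a processed pseudogene also matches Fdft1 over 1249 bases at 97.4% identity.

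Sqle encodes squalene epoxidase, which inserts oxygen into squalene in a rate-controlling step. The gene lies on chromosome 15, base 59315077 to 59331192, forward strand. Its level was 45.4 and 31.2 CPM in Hes1-derived and 71.8 and 84.3 CPM in Fgfr3-derived libraries, so that the higher Hes1-derived library stayed below the lower Fgfr3-derived one. It was 2.04-fold lower in Hes1-derived libraries, with a log2 fold change of −1.03 ± 0.25 (adjusted p = 0.044). Leaving out Hes1-derived replicate 3 ended the call (−0.78 with an adjusted p of 0.224), as did leaving out Fgfr3-derived replicate 2 (−1.13 with 0.0771) or Fgfr3-derived replicate 3 (−0.86 with 0.0889).

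Lss, the lanosterol synthase gene (chromosome 10, base 76531588 to 76557138, forward strand), had the fewest reads of the 8 genes, 252 and 266 for Hes1-derived cells and 509 and 490 for Fgfr3-derived cells. The 95% exact Poisson intervals of these numbers were 222 to 285, 235 to 300, 466 to 555 and 448 to 535 reads, covering counting error only. In CPM the levels were 11.1 and 10.7 against 20.1 and 18.7, with no overlap between groups and ranges within groups of 1.03-fold and 1.07-fold. Even so the log2 fold change of −0.83 ± 0.27 did not pass (adjusted p = 0.0896). Exons of Lss, Hmgcs1 and Idi1 also share 381, 557 and 323 bases (3.53%, 12.1% and 9.22% of their exons) with annotated genes on the opposite strand.

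Cyp51 encodes the cytochrome P450 that removes a methyl group from lanosterol. It lies on chromosome 5, base 4081145 to 4104746, reverse strand, with 863 and 984 reads for Hes1-derived libraries and 2407 and 2314 reads for Fgfr3-derived libraries, or 38.0 and 39.7 CPM against 94.9 and 88.5 CPM. The groups did not overlap, libraries of a group lay within 1.04-fold and 1.07-fold of each other, and Cyp51 had the smallest p of the 8 genes. Its level was 2.36-fold lower in Hes1-derived cells, a log2 fold change of −1.24 ± 0.20 (adjusted p = 0.0189). Its adjusted p was 0.0724 without Hes1-derived replicate 3, with the log2 fold change at −1.27. Cyp51 shares 166 exon bases, 3.76% of its exons, with Akap9 on the opposite strand. Akap9, also named after its values were seen, had 41.9 and 53.6 CPM against 53.2 and 38.4 CPM, with overlapping groups (log2 fold change 0.06 ± 0.26, adjusted p = 0.906), and Cyp51 had 90.7 and 73.9 reads per 100 Akap9 reads against 178 and 230.2.

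Promoter sequence was compared because SREBP2 acts on its targets through sterol regulatory elements, mostly with the factors NF-Y and Sp1 bound close by. The 250 bases before the RefSeq start (GRCm38.p6) were read for Hmgcs1, Idi1, Lss, Cyp51, Srebf2 and Insig1, while those of Sqle and Fdft1 were not analysed here. The sequences of Hmgcs1 and Cyp51 are shown as those of the 2 called genes with an entry, and that of Insig1 as that of the gene with the widest spread between libraries. Capitals mark the sterol regulatory element letters TCACNCCAC and the NF-Y letters CCAAT, on either strand, and each sequence runs 5′ to 3′ on the strand of its gene, from chr13:119690101-119690350 (forward strand) for Hmgcs1, chr5:4104698-4104947 (reverse strand) for Cyp51 and chr5:28071162-28071411 (forward strand) for Insig1.
Hmgcs1: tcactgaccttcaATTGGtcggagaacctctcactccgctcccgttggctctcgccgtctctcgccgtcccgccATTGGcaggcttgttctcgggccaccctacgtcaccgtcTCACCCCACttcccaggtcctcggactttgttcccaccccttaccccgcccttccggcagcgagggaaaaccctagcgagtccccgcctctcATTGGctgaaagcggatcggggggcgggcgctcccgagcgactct
Cyp51: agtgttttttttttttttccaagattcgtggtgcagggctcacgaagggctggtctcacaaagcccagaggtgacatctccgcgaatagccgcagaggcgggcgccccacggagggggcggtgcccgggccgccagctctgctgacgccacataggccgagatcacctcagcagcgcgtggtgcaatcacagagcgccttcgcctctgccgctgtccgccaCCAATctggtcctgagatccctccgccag
Insig1: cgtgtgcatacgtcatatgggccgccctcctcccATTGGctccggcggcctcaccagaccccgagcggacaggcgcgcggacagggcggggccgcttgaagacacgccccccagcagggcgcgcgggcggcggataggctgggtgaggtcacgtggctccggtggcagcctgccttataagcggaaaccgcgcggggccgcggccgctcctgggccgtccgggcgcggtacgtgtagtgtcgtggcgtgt

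The letters TCACNCCAC were present in 1 of 6 windows, that of Hmgcs1, where TCACCCCAC begins 137 bases before the start, and in 1.05% of 32851 promoter windows of the same length. CCAAT was found in 6 of 6 windows against 33.8% of all windows. Hmgcs1 held it at 3 places, and the Cyp51 copy begins 29 bases and the Insig1 copy 216 bases before the start. The Sp1 letters GGGCGG were likewise in 6 of 6 windows against 32.7% of all. The CCAAT and GGGCGG letters did not tell the called genes from the others, and a match describes letters, not binding. Only these exact letters were sought. A window without TCACNCCAC may thus still hold a sterol regulatory element with other letters.

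Neither of the regulators passed the test. Srebf2 (chromosome 15, base 82147181 to 82205379, forward strand) stood at 112 and 78.1 CPM in Hes1-derived and 82.0 and 137 CPM in Fgfr3-derived libraries. The groups overlapped, with a log2 fold change of −0.21 ± 0.30 (adjusted p = 0.702), and leaving out Hes1-derived replicate 3 turned the sign to 0.03 and leaving out Fgfr3-derived replicate 3 to 0.26. Per 100 reads of the 6 enzymes together, Srebf2 numbered 43.4 and 33.2 in the Hes1-derived libraries against 16.8 and 30.4 in the Fgfr3-derived ones.

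Insig1, which retains the SREBP escort in the endoplasmic reticulum, lies on chromosome 5, base 28071363 to 28078662, forward strand. Insig1 reads numbered 520 and 1817 for Hes1-derived cells and 1225 and 3818 for Fgfr3-derived cells, or 22.9 and 73.2 CPM against 48.3 and 146 CPM. Replicate 3 was the higher library of each group, 3.15-fold above replicate 1 in Hes1-derived and 3.00-fold above replicate 2 in Fgfr3-derived cells. Of all tested genes, 98.7% had a smaller range between the Hes1-derived libraries and 98.3% a smaller range between the Fgfr3-derived libraries. The log2 fold change was −1.01 ± 0.63 (adjusted p = 0.330), about as large as that of Sqle but with an SE of 0.63 against 0.25. It ranged from −2.09 when Hes1-derived replicate 3 was left out to 0.05 when Fgfr3-derived replicate 3 was. The 6 enzymes did not share this spread: their summed level was 257 and 235 CPM in Hes1-derived against 488 and 452 CPM in Fgfr3-derived libraries, and Insig1 reads per 100 enzyme reads were 8.89 and 31.2 against 9.91 and 32.3.

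**Figure D2:**
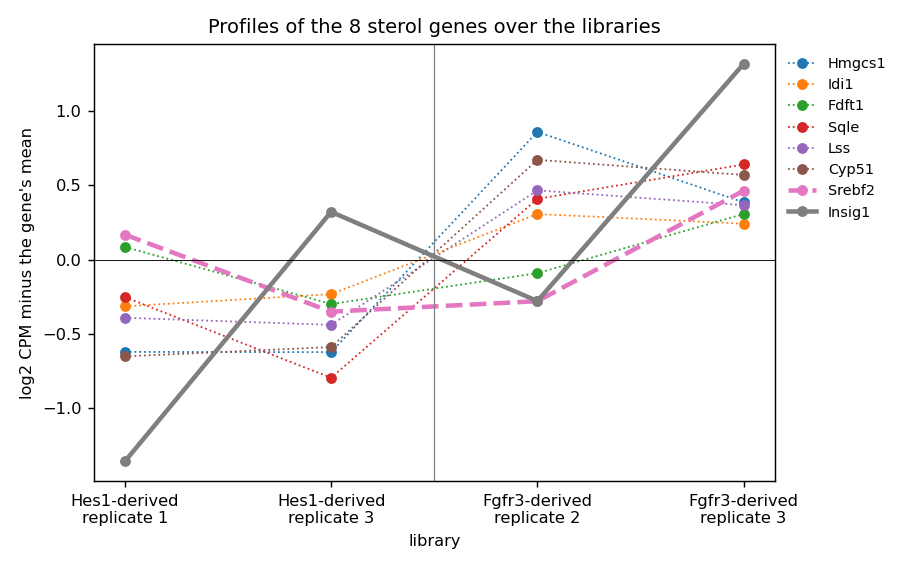
Log2 CPM of each sterol gene minus its own mean over the libraries (vertical axis), for the 2 Hes1-derived and then the 2 Fgfr3-derived libraries (horizontal axis), 1 line a gene. Insig1 (solid line) is higher in replicate 3 of each group, and Srebf2 (dashed line) is lowest in Hes1-derived replicate 3 and highest in Fgfr3-derived replicate 3.

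Levels per length of exon were compared between genes in the mean over all libraries, in CPM per kilobase of joined GENCODE M21 exons. Hmgcs1 (24.7) and Insig1 (23.5) were highest, followed by Idi1 (16.3), Cyp51 (14.8), Srebf2 (14.2), Fdft1 (11.5) and Sqle (10.5), with Lss (1.40) far below. The joined exons of Lss span 10787 bases over 8 annotated transcripts, which lowers its value. In Hes1-derived libraries the order was Insig1 (15.5 ± 11.5, SD, n = 2), Hmgcs1 (14.5 ± 0.011), Idi1 (13.2 ± 0.53), Srebf2 (13.2 ± 3.32), Fdft1 (10.7 ± 2.00), Cyp51 (8.79 ± 0.27), Sqle (6.91 ± 1.82) and Lss (1.01 ± 0.024). In Fgfr3-derived libraries it was Hmgcs1 (34.9 ± 8.03), Insig1 (31.4 ± 22.3), Cyp51 (20.8 ± 1.03), Idi1 (19.3 ± 0.62), Srebf2 (15.3 ± 5.44), Sqle (14.1 ± 1.59), Fdft1 (12.4 ± 2.40) and Lss (1.80 ± 0.088). Cyp51 thus stood below Idi1 in Hes1-derived cells by more than their spread, and above Idi1 in Fgfr3-derived cells by less than the sum of their SDs. Neighbours among Idi1, Srebf2 and Fdft1 in Hes1-derived cells, and among Srebf2, Sqle and Fdft1 in Fgfr3-derived cells, did not differ beyond their spread. Insig1 and Srebf2 could not be placed against their neighbours because of their spread.

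The rest of the synthesis pathway had mostly negative log2 fold changes that did not pass the test. Of 15 other synthesis enzymes, 1 was called lower and 1 higher, where 6.56% and 5.24% of all genes were. With edgeR at an unadjusted p under 0.05, 6 were lower and 1 higher, where 16.3% and 13.7% of all genes were. DESeq2 called 1 lower and 1 higher, against 10.4% and 9.48% of all genes. Both Hes1-derived libraries lay below both Fgfr3-derived ones for 11 of 15 and above for 1, against 32.1% and 29.8% of all tested genes. The log2 fold change was negative for 14 of 15 with a median of −0.50. With libraries scaled by stroma or by eGFP reads it was negative for 6 of 15 or 3 of 15. These scalings also raised the median of all genes, to 0.51 or 0.83. The median of the list lay 0.48 or 0.47 below that of all genes, against 0.47 in the standard fit. Sc4mol (now Msmo1), a methyl sterol oxidase that acts after Cyp51, had 45.3 and 43.3 CPM in Hes1-derived and 69.4 and 96.3 CPM in Fgfr3-derived libraries. Its log2 fold change was −0.90 ± 0.23 (adjusted p = 0.0499), and this call ended in many alternatives, among them RLE factors (adjusted p = 0.0555) and the removal of any 1 library (adjusted p between 0.0522 and 0.205). Lbr, which encodes both a sterol reductase and a lamin-binding protein of the nuclear envelope, was the exception at 1208 and 1082 CPM against 457 and 584 CPM, a log2 fold change of 1.14 ± 0.26 (adjusted p = 0.0375). Leaving out Hes1-derived replicate 1, Hes1-derived replicate 3 or Fgfr3-derived replicate 2 ended its call, with adjusted p of 0.0797, 0.0884 and 0.143. Leukocyte and cell cycle markers were higher in the same libraries, at the sums given above. Mvk (−0.87 ± 0.33, adjusted p = 0.125) and Dhcr7 (−0.68 ± 0.22, adjusted p = 0.0888) did not pass, and they were named after their values were seen.

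**Figure D3:**
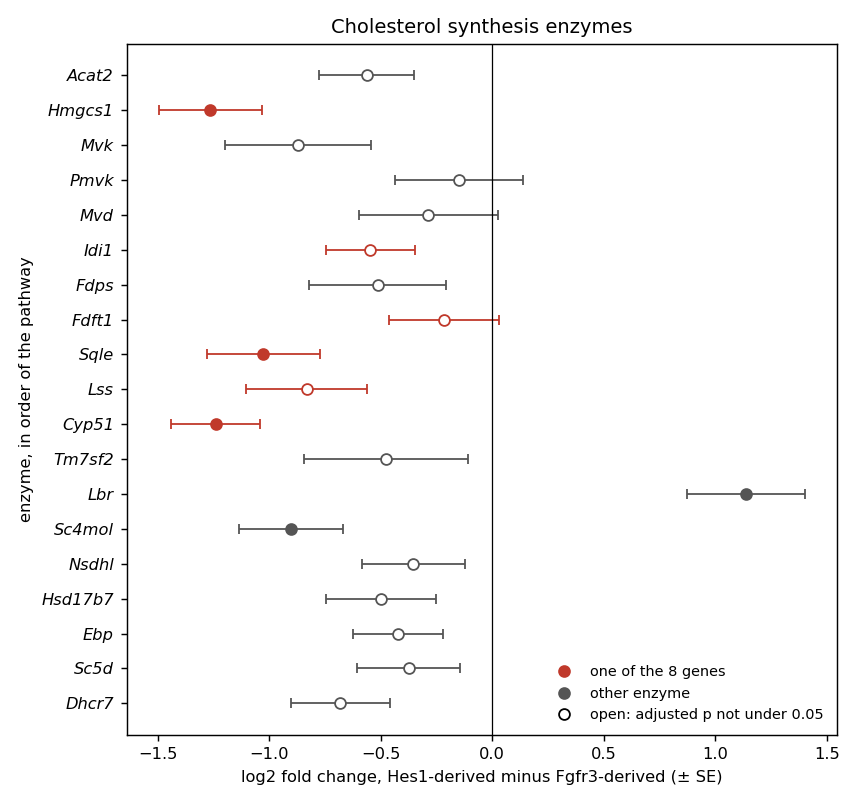
Log2 fold change, Hes1-derived minus Fgfr3-derived, with its SE (horizontal axis) for enzymes of cholesterol synthesis in pathway order from top to bottom, those among the 8 sterol genes in red. Hmgcs1, Sqle, Cyp51 and Sc4mol are filled on the left, where adjusted p was under 0.05, and Lbr alone is filled on the right.

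Genes for uptake and for movement of sterols inside the cell were called lower in 3 of 16 tested and higher in none, with a median of −0.16. Of all genes, 6.56% were called lower and 5.24% higher. At an unadjusted p under 0.05 edgeR gave the same counts of 3 and 0, against 16.3% of all genes lower and 13.7% higher. DESeq2 also gave 3 and 0, of 17 tested, against 10.4% and 9.48% of all genes. With Hes1-derived replicate 3 or Fgfr3-derived replicate 2 left out, 1 gene of this list was called. Vldlr, the very-low-density lipoprotein receptor, had 36.2 and 24.5 CPM in Hes1-derived and 129 and 154 CPM in Fgfr3-derived libraries. The groups lay far apart, with a log2 fold change of −2.22 ± 0.26 (adjusted p = 0.0143). Lrp1, a large endocytic receptor for lipoprotein remnants and other ligands, stood at 194 and 99.2 CPM against 460.3 and 370 CPM. Its log2 fold change of −1.50 ± 0.34 passed (adjusted p = 0.0352), though not when Hes1-derived replicate 3 (0.115) or Fgfr3-derived replicate 2 (0.0945) was left out. Vldlr kept its call when each library was left out and with stroma scaling, but not with eGFP scaling (−1.49, adjusted p = 0.278). Of the other list genes named here as called, Cyp27a1 alone passed with stroma scaling and with eGFP scaling. Osteoblast markers were lower in the same libraries.

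Among 14 other regulators of SREBP, edgeR called Insig2 alone lower and 0 higher (median −0.083), against 3 lower and 2 higher at an unadjusted p under 0.05 and 2 lower and 0 higher with DESeq2, shares to be read against those of all genes just given. Without Fgfr3-derived replicate 3 the fit called 2 lower and 1 higher and the median turned to 0.11, and without Fgfr3-derived replicate 2 the median was −0.19. Insig2, the second INSIG gene, had 111 and 74.6 CPM in Hes1-derived and 215 and 191 CPM in Fgfr3-derived libraries. Its groups, unlike those of Insig1, did not overlap, and the log2 fold change was −1.13 ± 0.25 (adjusted p = 0.0331). Leaving out Hes1-derived replicate 3 or Fgfr3-derived replicate 2 ended this call, with adjusted p of 0.167 and 0.0889. The escort gene Scap was not called (0.17 ± 0.22, adjusted p = 0.658), nor was Srebf1, which encodes the SREBP of fatty acid synthesis (−0.48 ± 0.21, adjusted p = 0.189), both named after their values were seen.

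Of 14 genes for sterol export, storage and oxidation, 1 was called in each direction (median −0.42), where 6.56% of all genes were called lower and 5.24% higher. With edgeR at an unadjusted p under 0.05, 4 were lower and 3 higher, where 16.3% and 13.7% of all genes were. DESeq2 called 3 lower and 2 higher, against 10.4% and 9.48% of all genes. Nr1h3, the oxysterol receptor LXR alpha, was lower at 15.0 and 17.1 CPM in Hes1-derived against 38.2 and 27.7 CPM in Fgfr3-derived libraries. Its log2 fold change was −1.04 ± 0.27 (adjusted p = 0.0494), and the call ended with RLE factors (adjusted p = 0.0515) and in every fit that left out a library other than Fgfr3-derived replicate 3. Cyp27a1, a mitochondrial sterol hydroxylase, averaged 11.3 ± 2.33 CPM in Hes1-derived libraries and 2.98 ± 0.43 CPM in Fgfr3-derived libraries (SD, n = 2 each). It was higher by a log2 fold change of 1.92 ± 0.38 (edgeR adjusted p = 0.0264), a call that did not hold when Hes1-derived replicate 3 (0.116) or Fgfr3-derived replicate 2 (0.0907) was left out. Of 11 genes of the isoprenoid branch 0 were called by edgeR, at an unadjusted p under 0.05 or by DESeq2 (median −0.061), the most abundant being Fnta, a farnesyltransferase subunit (−0.20 ± 0.20, adjusted p = 0.556), and Coq2, an enzyme of ubiquinone synthesis (−0.006 ± 0.21, adjusted p = 0.989).

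Fatty acid genes moved in both directions, with 3 lower and 2 higher of 16 tested, where 6.56% and 5.24% of all genes were. With edgeR at an unadjusted p under 0.05, 5 were lower and 2 higher, where 16.3% and 13.7% of all genes were. DESeq2 called 4 lower and 2 higher of 18 tested, against 10.4% and 9.48% of all genes. The median of the fatty acid genes, −0.048, turned to 0.017 with Hes1-derived replicate 1 left out and to 0.031 with Fgfr3-derived replicate 2 left out. It was −0.23 with Fgfr3-derived replicate 3 left out. The desaturase gene Scd2 had 95.4 and 98.1 CPM in Hes1-derived and 259 and 222 CPM in Fgfr3-derived libraries, for a log2 fold change of −1.31 ± 0.21 (adjusted p = 0.0184). Fads2, another desaturase, showed −1.44 ± 0.26 (adjusted p = 0.0227), and Acsl3, an acyl-CoA synthetase, −1.34 ± 0.24 (adjusted p = 0.0210). Acsl1, of the same synthetase family, was higher (1.13 ± 0.21, adjusted p = 0.0233), as was Gpam, which starts glycerolipid synthesis (1.00 ± 0.22, adjusted p = 0.0338). Without Hes1-derived replicate 3 none of these 5 passed, with adjusted p between 0.0521 and 0.146. Acsl3, Acsl1 and Gpam also failed when Hes1-derived replicate 1 was left out (0.0588, 0.0530 and 0.0893) and when Fgfr3-derived replicate 2 was (0.0648, 0.0680 and 0.0954).

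Similarity of pattern was measured as the root mean square difference, over the 4 libraries, between the centred log2 CPM of a gene and the mean centred profile of the 8 sterol genes. That mean profile was −0.41 and −0.37 for Hes1-derived cells and 0.25 and 0.53 for Fgfr3-derived cells. Among 9774 genes with a mean of at least 10 CPM, the nearest outside the 8 were Il3ra (0.036), Ckap4 (0.036), Dnajc27 (0.049), Ppapdc1b (0.055) and Pdlim7 (0.061). The sterol genes, which enter that mean themselves, lay farther off, from 0.14 for Lss to 0.75 for Insig1. The nearest genes were picked for their small distances, so this comparison cannot tell whether the sterol genes shared a profile. Ranked by distance among the 9774 genes, Lss stood at 101, Idi1 at 222, Sqle at 804 and Cyp51 at 1035. Fdft1 stood at 2020, Hmgcs1 at 2516, Srebf2 at 3350 and Insig1 at 8164. Their own part in the mean lowers these distances. On the authors' regularized log2 values the differences were smaller, between −0.95 for Hmgcs1 and −0.13 for Srebf2, with Cyp51 at −0.93.

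**Figure D4:**
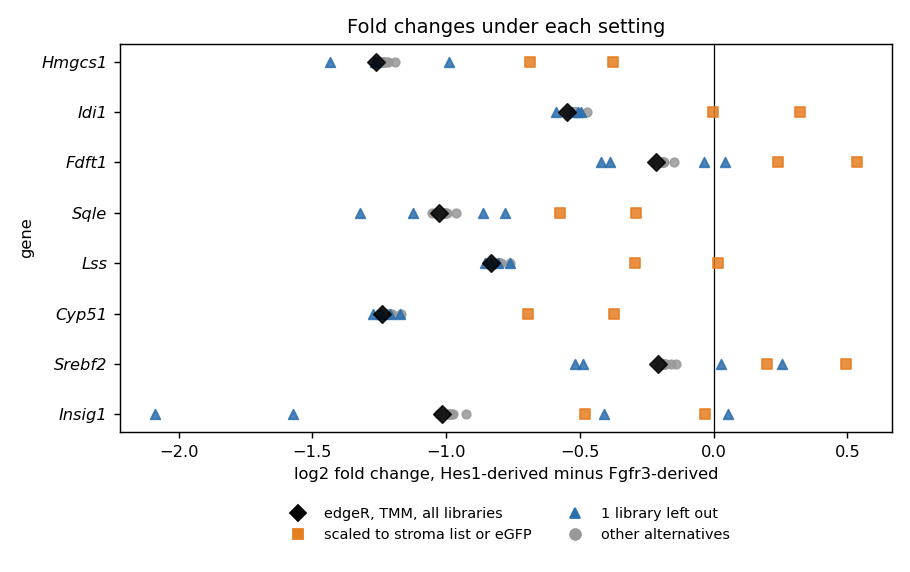
Log2 fold change of each sterol gene, Hes1-derived minus Fgfr3-derived (horizontal axis), in the standard fit (diamonds) and under each alternative. Scaling to the stroma list or to eGFP (squares) moves all 8 genes to the right, and leaving out 1 library (triangles) moves Insig1 most, between −2.09 and 0.05.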

How the data were processed

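Read counts per gene symbol were deposited by the authors for 4 bulk libraries, 2 per group. The deposited signal values are these counts multiplied by 1 constant per library, and the log2 values deposited beside them are named by the authors as regularized. Build mm10 is in the submitters' processing notes, as are Bowtie2 2.2.1, TopHat2 2.0.13, HTSeq, FastQC, DESeq2, Cuffdiff and Cufflinks, with no role or order given. Annotation and strand setting are not given in the sources used here.

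Hes1-derived libraries were compared with Fgfr3-derived libraries by edgeR 4.0.16 (R 4.3.3): TMM factors, filter at a minimum count of 10, robust quasi-likelihood F test, and Benjamini-Hochberg adjustment over 14330 genes at 0.05. The fit left 2 residual degrees of freedom, and the biological coefficient of variation was 27.8%. SEs are the absolute log2 fold change over the square root of F. The alternatives were DESeq2 1.42.0, limma 3.58.1 (voom, and trend on log2 of the deposited signal plus 1), other scalings, filters and thresholds, and leaving out each library. The 4 test methods were tested on simulated data.

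The 8 genes, the pathway lists and the cell type lists were chosen with earlier results of these data known, and list counts and medians carry no test. The naming rule took the 8 genes, up to 4 called genes per direction of each pathway list or else the 2 most abundant, the 2 most abundant genes of each cell type list and the 5 nearest profiles, and some genes that it names are not reported. Positions and exon lengths came from GENCODE M21 (GRCm38), promoters from RefSeq (GRCm38.p6), with 6 of 8 genes matched. Transcript copies of at least 95% identity over 200 bases were sought with BLAST 2.17.0.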

Additional observations from a re-analysis of the deposited data

How the results depend on the processing

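The call of 3 sterol genes as lower, and of none as higher, held with DESeq2, with library-total, RLE and upper-quartile scaling, with limma-voom, limma-trend on the deposited values, both other filters, non-robust dispersions and a 2-fold minimum, and became 4 lower at an adjusted p under 0.10, where Lss joined. It became 0 lower with stroma or eGFP scaling, and leaving out 1 library gave between 0 and 2 lower (0 without Hes1-derived replicate 3, 1 without Fgfr3-derived replicate 2). A lone library was then assumed to vary like the other group. Under stroma scaling the log2 fold changes of Fdft1 and Srebf2 turned to 0.24 and 0.20, and under eGFP scaling those of Idi1, Fdft1, Lss and Srebf2 to 0.32, 0.54, 0.017 and 0.50. Without Hes1-derived replicate 3 that of Srebf2 turned to 0.03, and without Fgfr3-derived replicate 3 those of Fdft1, Srebf2 and Insig1 turned to 0.042, 0.26 and 0.052. Over the fits without 1 library the range was −0.42 to 0.042 for Fdft1, −0.52 to 0.26 for Srebf2 and −2.09 to 0.052 for Insig1. None of these reversed values passed the test, and the cause was not tested.

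Over all genes, 751 were higher and 940 lower (44.4% higher). Stroma scaling gave 892 higher and 147 lower, eGFP scaling 324 and 19, DESeq2 1411 and 1552, and an adjusted p under 0.10 gave 1411 and 1664. Leaving out 1 library gave 183 to 1225 higher and 181 to 998 lower genes. No paired analysis was possible because the groups share only replicate number 3. Depth limits Lss most, with 252 reads in its smallest library.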

Other observations

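The spread of Insig1 between libraries of a group had few parallels. Among 9774 genes with a mean of at least 10 CPM, 11 were at least 2-fold higher in replicate 3 of both groups than in the other library of the same group, 10 were at least 2-fold lower in replicate 3 of both groups, and 20 and 11 changed by at least 2-fold in opposite directions in the 2 groups. Ranked by the smaller of the 2 log2 differences, Insig1 came first at 1.59 and Chmp4b, a subunit of the membrane-remodelling ESCRT-III complex, next at 1.55, followed by Fcnb (1.12), Gca (1.11) and Lilrb4 (1.11), genes known from myeloid cells. These genes were named after their values were seen. The labels do not say that replicate numbers mark a shared day or litter, so the numbers name libraries only.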
